A study of Mus musculus with 26 samples.

Results

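The genes described here are 49 genes of mitosis: cyclins and kinases that drive cells into division, the spindle checkpoint, the kinetochore, spindle motors, condensin and the machinery of anaphase and cytokinesis. They were listed by symbol, and a gene was measured where the array annotation gives at least 1 probe set to its symbol alone. This held for 48 of the 49, with 110 probe sets among 18193 genes and 45037 probe sets in all. Ccnb1, which encodes cyclin B1, was not matched and is not analysed here. Where a gene has several probe sets, the one whose values average highest across the 26 arrays stands for it.

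Inguinal mammary glands of 26 mice were profiled, each on its own Affymetrix array, as log2 values made by the authors with RMA. The groups, all without any stated treatment, are mice of an Advanced Intercross Line (AIL) at lactation day 9 with the sample code AQ (5 mice) or AC (5), QSi5 (3) and CBA/CaH (3) mice at lactation day 9, and QSi5 (5) and CBA/CaH (5) mice at pregnancy day 12. The AIL descends from a cross of CBA/CaH with QSi5 and was sampled at generation 14. The labels give neither the meaning of AQ and AC nor the age of the mice. Where QSi5 is set against CBA/CaH, the difference is QSi5 minus CBA/CaH.

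In mid-pregnancy the mammary epithelium proliferates and builds the ducts and alveoli that later secrete milk, and by established lactation most alveolar cells secrete and few divide. The RNAs of mitotic genes are made mainly in late S, G2 and M phase, through the transcription factors B-MYB and FOXM1 acting with the MuvB complex. They are therefore abundant in tissue with many dividing cells and scarce where cells rest. In whole tissue, fewer dividing cells and less RNA per cell cannot be told apart.

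The labelled tissue and stages were checked first. The luminal epithelial keratin Krt8 had 9.35 to 11.15 on the 16 lactation arrays and 12.48 to 13.12 on the 10 pregnancy arrays, so epithelial RNA was plentiful on every array. Csn1s2b, a milk casein, had 14.66 to 14.88 at lactation and 4.19 to 6.81 at pregnancy. By the Gapdh measure or the median of markers of tissues beside or blood cells within the gland (muscle, brown fat, B and plasma, T and NK, and red blood cells), 6 arrays stood over 1 log2 unit above the mean of their group. They were pregnancy CBA/CaH arrays 3 and 5 (brown fat markers), pregnancy QSi5 array 3 (muscle) and pregnancy QSi5 array 4 (Gapdh and brown fat markers). The others were lactation QSi5 array 2 (B and plasma cells) and AIL AC array 1 (muscle). The Gapdh measure is the value of the 3' Gapdh control probe set minus that of the 5' one, which rises when RNA is broken or incompletely copied. It was 6.50 on array 4 of pregnant QSi5, against 1.20 to 1.74 for the other 4 mice. Among markers of the gland's own cells, pregnancy CBA/CaH array 4 was high for white adipocytes (2.52, the median of the markers relative to all arrays), fibroblasts (2.09) and macrophages (1.24).

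The mitotic genes fell by lactation in both strains. The median of the 48 values on an array lay between 4.99 and 5.59 on the 16 lactation arrays and between 7.07 and 8.54 on the 10 pregnancy arrays, without overlap. For 35 of the 48 genes every lactation array was below every pregnancy array, which held for 14.2% of all genes. On a lactation array 18 to 26 of the 48 values were below the median of all probe sets of that array, against 0 to 4 on a pregnancy array.

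**Figure D1:**
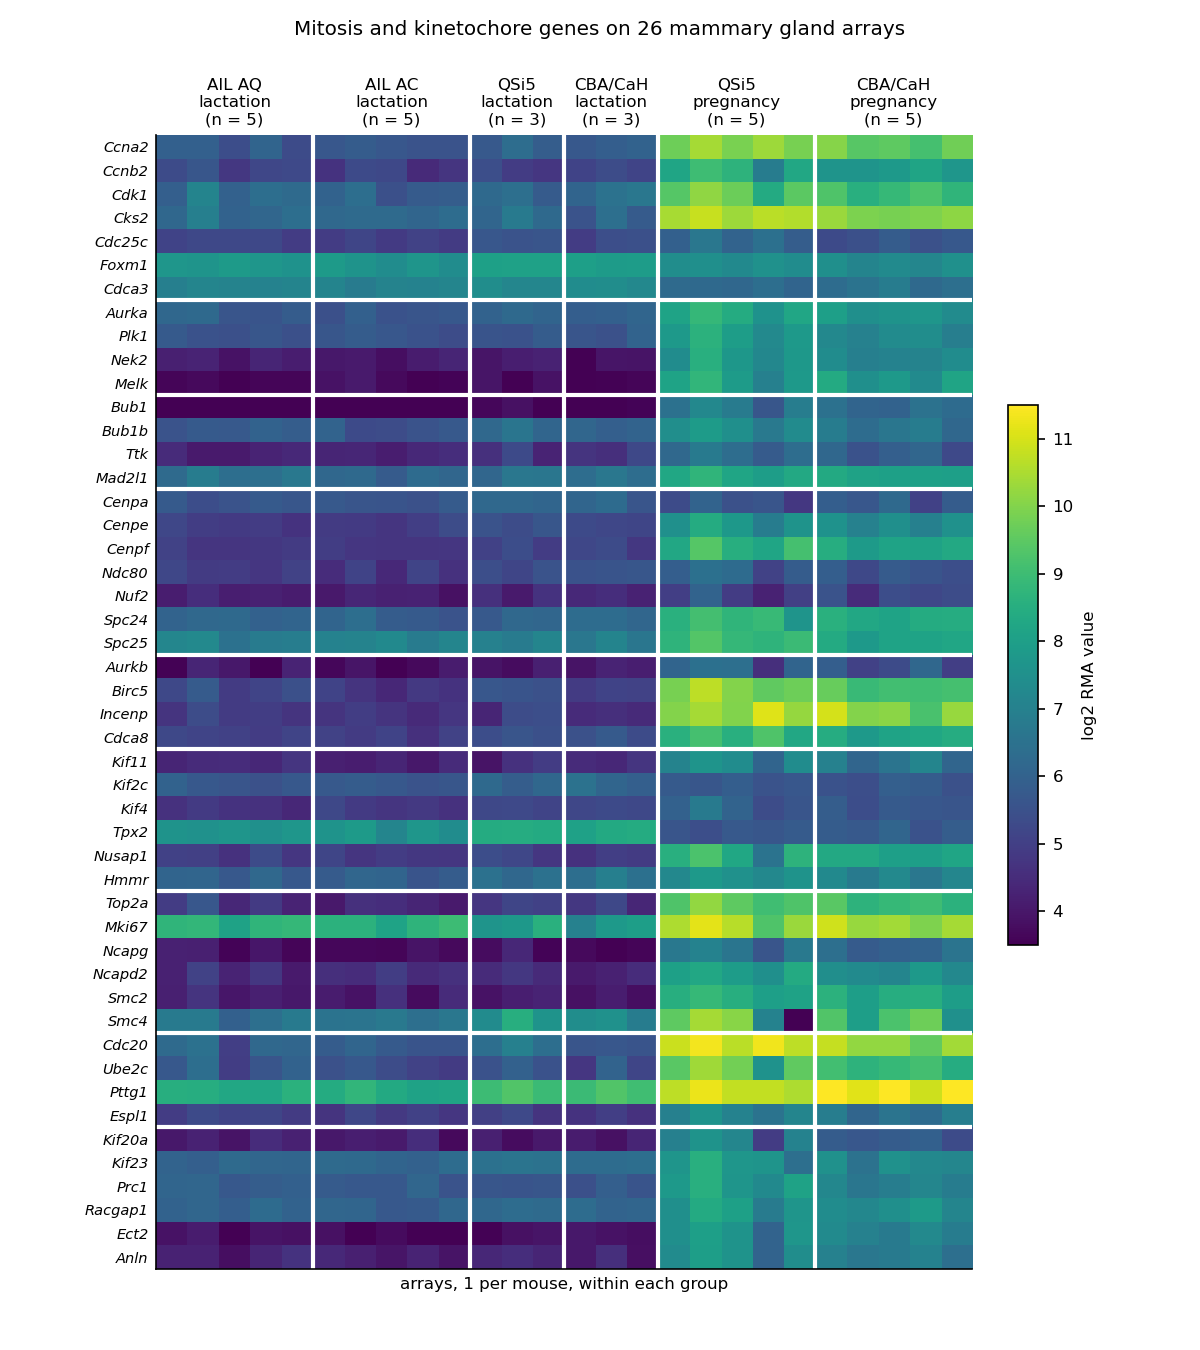
Log2 RMA values of the 48 measured genes (rows, in the order of their roles from cyclins to cytokinesis) on the 26 arrays (columns, 1 mouse each, by group). Most rows are dark on the 16 lactation arrays and bright on the 10 pregnancy arrays, while Tpx2, Cdca3 and Foxm1 are brighter at lactation.

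Differences between groups were tested with limma across all probe sets, and a gene was called at a Benjamini-Hochberg adjusted p under 0.05. Between lactation and pregnancy in QSi5, 40 genes were called lower and 4 higher, beside 32.7% and 33% of all genes. In CBA/CaH, 38 were called lower and 4 higher, beside 29.5% and 30.4% of all genes. The median difference of the 48 genes was -2.32 in QSi5 and -2.08 in CBA/CaH, where that of all genes was 0.04 and 0.05. In both strains 37 genes were called lower. Both strains' counts stayed near these under every alternative run, at 36 to 42 lower in QSi5 and 33 to 40 in CBA/CaH.

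**Figure D2:**
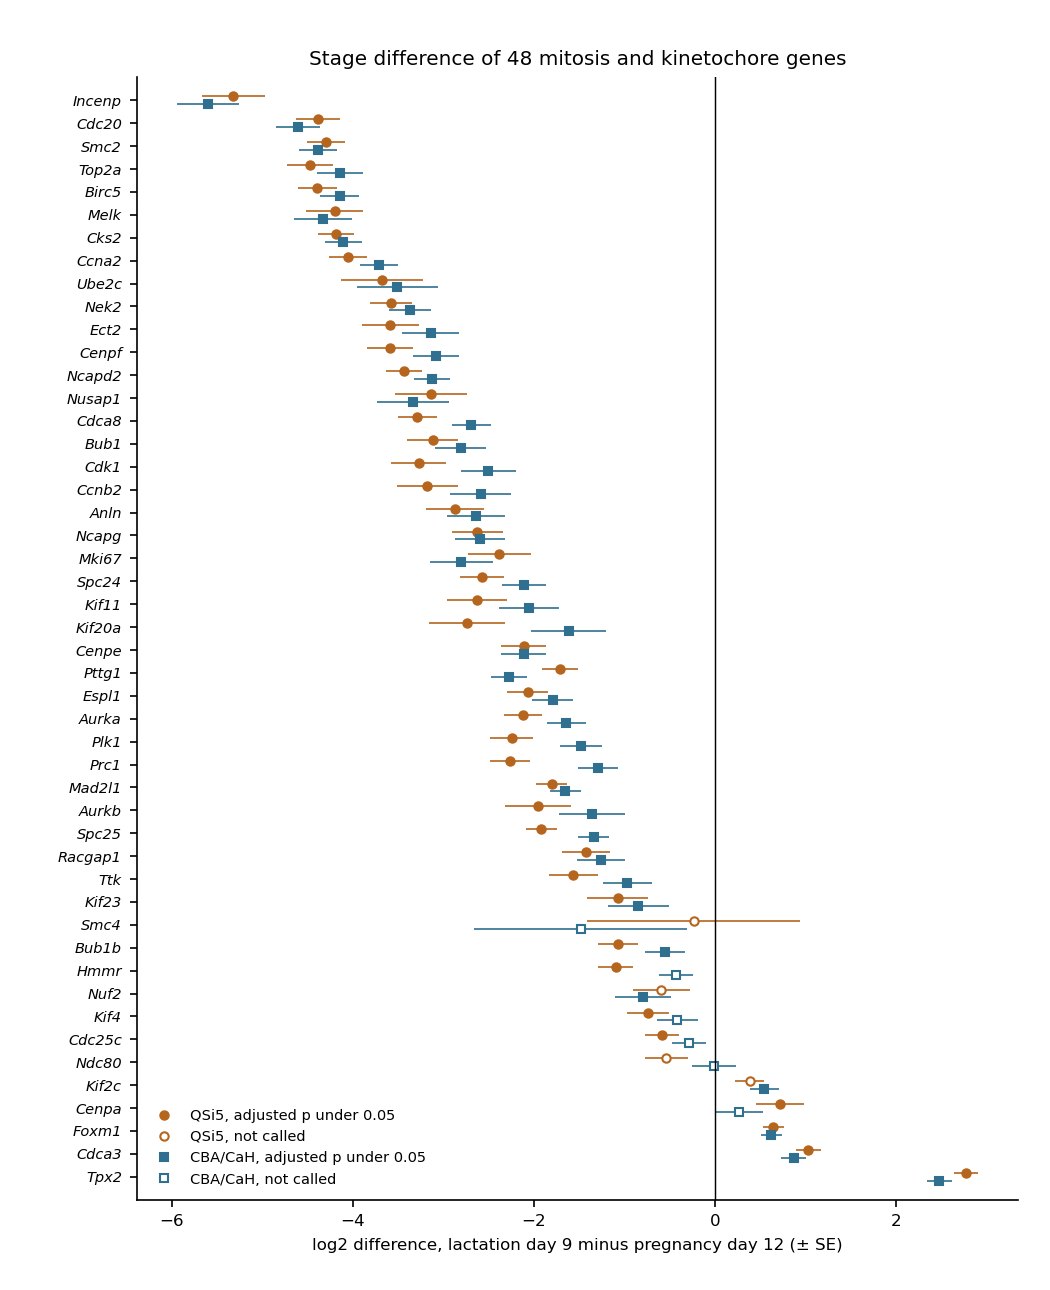
Log2 difference, lactation day 9 minus pregnancy day 12, with its SE for each of the 48 genes, in QSi5 (circles) and CBA/CaH (squares), ordered by the mean of both strains; filled symbols have an adjusted p under 0.05. Incenp, in the top row, has the most negative differences (-5.32 and -5.61), and Tpx2, in the bottom row, the most positive (2.78 and 2.48).

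What these genes share beyond their role can be seen in their promoters. TTTGAA is the core of the cell cycle genes homology region (CHR), bound by MuvB complexes, and CCAAT is the box bound by NF-Y. The promoter windows of 4 core regulators, from 250 bases before to 50 after the annotated start, are printed. They were chosen by name, and each carries both motifs. Capitals mark TTTGAA and CCAAT on the printed strand, or CCAAT read on the opposite strand (ATTGG). They are RefSeq sequences of the mouse build GRCm38.p6: Ccnb2 at chr9:70421505-70421804 (minus strand), Cdk1 at chr10:69352863-69353162 (minus), Plk1 at chr7:122159185-122159484 (plus) and Cdc20 at chr4:118437294-118437593 (minus).
Ccnb2: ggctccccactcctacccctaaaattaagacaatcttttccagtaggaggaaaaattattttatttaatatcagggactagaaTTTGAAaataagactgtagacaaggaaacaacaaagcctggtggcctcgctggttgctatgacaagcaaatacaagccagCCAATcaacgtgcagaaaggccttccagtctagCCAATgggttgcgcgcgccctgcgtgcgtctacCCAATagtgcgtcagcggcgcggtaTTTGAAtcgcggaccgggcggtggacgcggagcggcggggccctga
Cdk1: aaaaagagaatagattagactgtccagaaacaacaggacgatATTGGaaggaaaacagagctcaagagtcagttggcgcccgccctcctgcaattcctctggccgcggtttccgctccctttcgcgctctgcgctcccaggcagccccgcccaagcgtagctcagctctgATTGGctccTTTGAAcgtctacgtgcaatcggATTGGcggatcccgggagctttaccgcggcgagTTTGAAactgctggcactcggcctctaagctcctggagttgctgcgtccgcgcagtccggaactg
Plk1: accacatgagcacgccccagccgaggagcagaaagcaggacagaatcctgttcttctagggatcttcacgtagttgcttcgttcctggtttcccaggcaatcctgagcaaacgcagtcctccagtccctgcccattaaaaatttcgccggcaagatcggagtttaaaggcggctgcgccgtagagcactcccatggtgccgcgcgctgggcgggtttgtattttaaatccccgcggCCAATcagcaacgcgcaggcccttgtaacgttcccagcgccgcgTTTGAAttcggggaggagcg
Cdc20: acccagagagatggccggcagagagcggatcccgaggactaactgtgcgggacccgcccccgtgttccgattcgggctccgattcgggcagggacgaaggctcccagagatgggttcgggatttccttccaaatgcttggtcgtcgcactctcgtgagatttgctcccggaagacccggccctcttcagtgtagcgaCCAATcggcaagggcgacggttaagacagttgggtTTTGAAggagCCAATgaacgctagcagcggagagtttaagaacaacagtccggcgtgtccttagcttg

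Counting the annotated start as position 0, TTTGAA began at position 4 in Ccnb2, at -15 in Cdk1, at 30 in Plk1 and at -18 in Cdc20, with a further copy at -167 in Ccnb2 and at -71 in Cdk1. The CCAAT boxes lay before it at -87, -54 and -21 in Ccnb2. Both motifs were searched on both strands in 41 windows of the 39 genes that RefSeq's table holds, each motif on its own, so that sites of different motifs may share bases. TTTGAA was in 31 windows (75.6%), against 17.9% of all 32851 mouse windows of that length. CCAAT was in 32 (78.0%), against 37.4%. Both were in 28 (68.3%), against 6.95%. TTTGAA within 50 bases of the start, a span chosen after the positions were seen, was in 28 windows (68.3%), against 4.94%. The E2F-like motif TTTNGCGC was in 3 (7.32%), against 1.38%.

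The motif was set beside the calls on the probe set used for each gene. Of the 29 genes with TTTGAA in a window, 23 were called lower in both strains, as were 9 of the 10 without it, which include Birc5, Melk and Cks2. Only 10 genes lack it, and Cenpa, Kif2c and Cdca3, which have it, have other probe sets called lower, as given further on. Whether the motif goes with the change was not tested. Outside the 48, 298 genes of the array had TTTGAA within 50 bases of the start together with CCAAT. Of these 32.6% were called lower in QSi5 and 29.9% in CBA/CaH, where 33.6% and 30.2% of the genes without TTTGAA near the start were.

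Among the cyclins, cyclin-dependent kinase and their regulators, 5 of 7 measured genes were called lower in QSi5 and 4 of 7 in CBA/CaH, and 2 were called higher in each strain. The counts of this and the following roles stand beside 32.7% of all genes called lower and 33% higher in QSi5. In CBA/CaH these shares were 29.5% and 30.4%. Cks2, a small subunit bound to the kinase CDK1, fell most. It had 6.10, 6.79 and 6.23 at lactation in QSi5, against 10.44, 10.83, 10.32, 10.66 and 10.56 at pregnancy. CBA/CaH glands had 5.54, 6.44 and 5.81 at lactation, against 10.29, 9.93, 9.86, 9.95 and 10.13 at pregnancy. The stages lie over 3 log2 units apart in each strain, and the difference was -4.19 in QSi5 (SE 0.20, adjusted p = 1.42e-09) and -4.11 in CBA/CaH (SE 0.20, adjusted p = 2.2e-09).

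Cdk1 itself, the kinase whose activation starts mitosis, had 6.25, 6.43 and 5.79 at lactation in QSi5, against 9.39, 10.16, 9.71, 8.40 and 9.49 at pregnancy. It had 6.08, 6.52 and 6.69 at lactation in CBA/CaH, against 9.30, 8.55, 8.86, 9.23 and 8.74 at pregnancy. Array 4 was the lowest of the pregnant QSi5 mice, and the stages did not overlap. Cdk1 differed by -3.27 in QSi5 (SE 0.30, adjusted p = 6.45e-07) and -2.51 in CBA/CaH (SE 0.30, adjusted p = 1.19e-05). Ccna2 (cyclin A2) differed by -4.06 and -3.71, and Ccnb2 (cyclin B2) by -3.18 and -2.59, in QSi5 and CBA/CaH in that order, both called.

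Foxm1, the transcription factor that drives many of these genes, went the other way on the probe set used. It had 8.06, 8.08 and 8.07 at lactation in QSi5, against 7.42, 7.47, 7.30, 7.54 and 7.39 at pregnancy. In CBA/CaH the values were 8.02, 7.89 and 7.93 at lactation, against 7.49, 7.11, 7.33, 7.16 and 7.53 at pregnancy. The groups did not overlap, and the difference was 0.65 in QSi5 (SE 0.11, adjusted p = 0.000229) and 0.62 in CBA/CaH (SE 0.11, adjusted p = 0.000404). Another Foxm1 probe set was called lower, as given further on. Cdca3, a trigger of mitotic entry that acts with the SCF ubiquitin ligase in the degradation of the mitosis inhibitor WEE1, was also called higher, by 1.03 and 0.87. Cdc25c, the phosphatase that activates CDK1, was called lower in QSi5 (-0.58, adjusted p = 0.0152). The CBA/CaH values were a difference of -0.29 (adjusted p = 0.205).

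All 4 mitotic kinases were called lower in both strains. Melk, a kinase abundant in proliferating progenitor cells, differed most. Its values were 3.95, 3.32 and 3.89 at lactation in QSi5, against 8.15, 8.78, 7.88, 6.98 and 7.84 at pregnancy. In CBA/CaH they were 3.32, 3.55 and 3.62 at lactation, against 8.38, 7.48, 7.79, 7.33 and 8.16 at pregnancy. Its lactation values lie near the low end of the table, whose lowest value is 2.34. Melk differed by -4.20 in QSi5 (SE 0.32, adjusted p = 8.32e-08) and by -4.33 in CBA/CaH (SE 0.32, adjusted p = 9.66e-08).

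Aurka encodes Aurora kinase A, which matures the centrosomes. It had 6.03, 6.25 and 6.09 at lactation in QSi5, against 8.15, 8.83, 8.42, 7.58 and 8.25 at pregnancy. For CBA/CaH they were 5.90, 5.97 and 6.11 at lactation, against 8.01, 7.48, 7.61, 7.71 and 7.36 at pregnancy. The difference was -2.12 (SE 0.21, adjusted p = 1.33e-06) in QSi5 and -1.64 (SE 0.21, adjusted p = 2.18e-05) in CBA/CaH, with no overlap.

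Plk1, the polo-like kinase needed at several steps of mitosis, had 5.59, 5.51 and 5.84 at lactation in QSi5, against 7.78, 8.63, 7.96, 7.27 and 7.83 at pregnancy. CBA/CaH mice had 5.60, 5.49 and 6.06 at lactation, against 7.25, 7.02, 7.36, 7.43 and 6.92 at pregnancy. The stages did not overlap in either strain, and the difference was -2.25 in QSi5 (SE 0.23, adjusted p = 1.9e-06) and -1.48 in CBA/CaH (SE 0.23, adjusted p = 0.00012). Nek2, a centrosomal kinase, differed by -3.58 and -3.37.

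The spindle checkpoint, which holds anaphase until every kinetochore is attached, had all 4 genes called lower in both strains. Bub1, its scaffold kinase, had 3.65, 3.87 and 2.98 at lactation in QSi5, against 6.48, 7.24, 6.84, 5.65 and 6.89 at pregnancy. CBA/CaH glands had 3.47, 3.36 and 3.57 at lactation, against 6.49, 6.09, 6.002, 6.51 and 6.30 at pregnancy. It differed by -3.12 in QSi5 (SE 0.28, adjusted p = 4.92e-07) and -2.81 in CBA/CaH (SE 0.28, adjusted p = 2.01e-06). Mad2l1, the inhibitor of the CDC20-bound complex, differed by -1.81 and -1.65, and the checkpoint kinase Ttk by -1.57 and -0.97. Bub1b differed by -1.08 in QSi5 and -0.55 in CBA/CaH, the second with an adjusted p of 0.0462 and a call lost in 8 of 18 alternatives.

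The kinetochore was less even. Of 7 genes, 4 were called lower and 1 higher in QSi5, and 5 were called lower in CBA/CaH. Cenpf, a large outer protein that appears in G2, had 5.03, 5.39 and 4.92 at lactation in QSi5, against 8.29, 9.38, 8.52, 8.19 and 9.15 at pregnancy. The CBA/CaH values were 5.20, 5.32 and 4.79 at lactation, against 8.49, 7.85, 8.14, 8.12 and 8.32 at pregnancy. The difference was -3.59 in QSi5 (SE 0.25, adjusted p = 3.8e-08) and -3.08 in CBA/CaH (SE 0.25, adjusted p = 2.52e-07).

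The NDC80 complex, the microtubule-binding arm of the kinetochore, has 4 subunits, all listed here. Spc24 differed by -2.57 and -2.11, and Spc25 by -1.92 and -1.34, in QSi5 and CBA/CaH, all called. Ndc80 had 5.42, 5.16 and 5.54 at lactation in QSi5, against 5.91, 6.44, 6.28, 5.09 and 5.82 at pregnancy, and the stages overlapped. For CBA/CaH they were 5.52, 5.56 and 5.64 at lactation, against 5.89, 5.23, 5.80, 5.59 and 5.42 at pregnancy. Neither difference was called, at -0.54 in QSi5 (SE 0.24, adjusted p = 0.0645) and -0.01 in CBA/CaH (SE 0.24, adjusted p = 0.969). In QSi5 it was called lower in 8 of 18 alternatives, among them without array 4 of the pregnant mice (-0.74, adjusted p = 0.00224) and with the Gapdh covariate (-0.71, adjusted p = 0.003). Nuf2 was called lower in CBA/CaH at -0.80 (adjusted p = 0.0418) and had a difference of -0.59 in QSi5 (adjusted p = 0.112). The CBA/CaH call was lost in 9 of 17 alternatives, including 7 of the 8 that leave out 1 array, and the QSi5 difference was called in 5. Ndc80 and Nuf2 each have a single probe set, with means over all arrays of 5.35 and 4.60.

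Cenpe, a kinesin of the kinetochore, differed by -2.11 in each strain. Cenpa, the histone H3 variant that marks centromeres, was called higher in QSi5 at 0.72 (SE 0.27, adjusted p = 0.0303), with 6.21, 6.20 and 6.11 at lactation, against 5.33, 6.06, 5.48, 5.60 and 4.80 at pregnancy. In CBA/CaH the difference was 0.27 (adjusted p = 0.409), with 6.11, 6.30 and 5.60 at lactation, against 5.88, 5.67, 6.24, 5.04 and 5.84 at pregnancy. The QSi5 call was lost in 9 of 18 alternatives, among them array medians set equal (0.50, adjusted p = 0.115) and 5 that leave out 1 array, and another Cenpa probe set was called lower.

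The chromosomal passenger complex corrects faulty attachments and guides cytokinesis, and its 4 genes were called lower in both strains. Incenp, its scaffold, had the lowest difference of all 48 genes. It had 4.31, 5.37 and 5.43 at lactation in QSi5, against 10.02, 10.44, 9.99, 11.11 and 10.23 at pregnancy. CBA/CaH mice had 4.49, 4.57 and 4.47 at lactation, against 10.99, 10.003, 10.10, 9.21 and 10.27 at pregnancy. The difference was -5.32 in QSi5 (SE 0.34, adjusted p = 1.8e-08) and -5.61 in CBA/CaH (SE 0.34, adjusted p = 1.78e-08). That probe set has an x in its name, with which Affymetrix marks probes that can match other sequences. The probe sets used for Aurkb, Cdca3 and Cdc25c have the x as well. A further Incenp probe set, 1423092_at, differed by -2.90 and -2.52, while 1423093_at differed by 0.60 and 0.59, all called.

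Birc5 (survivin), the subunit that docks the complex on chromosomes, had 5.66, 5.59 and 5.49 at lactation in QSi5, against 9.85, 10.69, 10.01, 9.55 and 9.75 at pregnancy. CBA/CaH glands had 4.88, 5.11 and 5.07 at lactation, against 9.65, 8.91, 9.07, 9.06 and 9.15 at pregnancy. At lactation every QSi5 array was above every CBA/CaH array, and the stage differences were -4.39 (SE 0.21, adjusted p = 1.44e-09) in QSi5 and -4.15 (SE 0.21, adjusted p = 3.55e-09) in CBA/CaH. Cdca8 (borealin) differed by -3.29 and -2.69, and the kinase Aurkb by -1.95 and -1.36.

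Spindle motors and assembly factors were the most mixed group. Of 6 genes, 4 were called lower and 1 higher in QSi5, and 2 were called lower and 2 higher in CBA/CaH. The CBA/CaH counts, 33.3% in each direction, were near the shares of all genes, 29.5% lower and 30.4% higher. Nusap1, which bundles microtubules near chromosomes, had 5.39, 5.19 and 4.77 at lactation in QSi5, against 8.53, 9.25, 8.28, 6.56 and 8.66 at pregnancy. The CBA/CaH values were 4.63, 4.97 and 4.88 at lactation, against 8.32, 8.33, 8.02, 7.97 and 8.20 at pregnancy. It differed by -3.14 (SE 0.40, adjusted p = 1.29e-05) and -3.34 (SE 0.40, adjusted p = 1.08e-05), and Kif11, the motor that pushes spindle poles apart, by -2.63 and -2.05.

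Tpx2, which activates Aurora A on the spindle, had the highest difference of the 48 genes. It had 8.41, 8.44 and 8.40 at lactation in QSi5, against 5.62, 5.42, 5.72, 5.65 and 5.81 at pregnancy. For CBA/CaH they were 8.08, 8.36 and 8.43 at lactation, against 5.83, 5.72, 6.10, 5.52 and 5.87 at pregnancy. The difference was 2.78 in QSi5 (SE 0.14, adjusted p = 1.47e-09) and 2.48 in CBA/CaH (SE 0.14, adjusted p = 5.85e-09). Other probe sets of Tpx2 fell, as given further on. Kif2c, a microtubule depolymerase, had 6.24, 5.85 and 6.17 at lactation in QSi5, against 5.77, 5.65, 5.89, 5.54 and 5.68 at pregnancy (difference 0.38, adjusted p = 0.0545). It was called higher in CBA/CaH (0.55, adjusted p = 0.0109), a call lost in 3 of 18 alternatives, and in QSi5 it was called higher in 5 of 18.

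The chromokinesin Kif4 was called lower in QSi5 (-0.74, adjusted p = 0.012) and had a difference of -0.42 in CBA/CaH (adjusted p = 0.14). Hmmr, a spindle protein and hyaluronan receptor, was called lower in QSi5 (-1.10, adjusted p = 0.000186) and had -0.43 in CBA/CaH (adjusted p = 0.0663). A stage difference called in one strain and not in the other was not shown to differ between the strains; that test is the interaction given further on.

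Condensin and chromosome structure genes, which compact and untangle chromosomes, had 5 of 6 called lower in each strain. Smc2, the core subunit of condensin, had 3.88, 4.16 and 4.29 at lactation in QSi5, against 8.53, 8.86, 8.53, 8.02 and 8.10 at pregnancy. CBA/CaH mice had 3.87, 4.13 and 3.79 at lactation, against 8.64, 7.995, 8.50, 8.50 and 7.95 at pregnancy. The groups lay far apart, at -4.30 in QSi5 (SE 0.21, adjusted p = 1.42e-09) and -4.39 in CBA/CaH (SE 0.21, adjusted p = 1.8e-09).

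Top2a, topoisomerase II alpha, had 4.77, 5.17 and 5.06 at lactation in QSi5, against 9.31, 10.19, 9.52, 9.06 and 9.29 at pregnancy. CBA/CaH glands had 4.78, 5.22 and 4.35 at lactation, against 9.44, 8.68, 8.87, 9.02 and 8.63 at pregnancy. The difference was -4.48 in QSi5 (SE 0.25, adjusted p = 4.51e-09) and -4.14 in CBA/CaH (SE 0.25, adjusted p = 1.63e-08).

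Mki67, which encodes the proliferation marker Ki-67, had 7.65, 7.77 and 8.57 at lactation in QSi5, against 10.50, 11.17, 10.64, 9.31 and 10.28 at pregnancy. The CBA/CaH values were 7.0, 7.80 and 7.98 at lactation, against 10.93, 10.26, 10.39, 9.97 and 10.43 at pregnancy. The stages did not overlap, and the difference was -2.38 in QSi5 (SE 0.35, adjusted p = 4.77e-05) and -2.80 in CBA/CaH (SE 0.35, adjusted p = 1.6e-05).

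Smc4, the partner of Smc2, was called in neither strain on the probe set used. It had 7.36, 8.53 and 7.61 at lactation in QSi5, against 9.51, 10.41, 10.07, 7.06 and 3.28 at pregnancy. For CBA/CaH they were 7.42, 7.54 and 6.85 at lactation, against 9.33, 7.97, 9.24, 9.72 and 7.52 at pregnancy. The value of 3.28 on pregnancy QSi5 array 5 lies far below the others. The error was wide, at 1.18 around differences of -0.23 (adjusted p = 0.874) and -1.48 (adjusted p = 0.297). Leaving out any 1 of the 8 arrays of a strain brought no call in that strain. A second Smc4 probe set, 1452197_at, had 9.07 on pregnancy QSi5 array 5 and differed by -3.26 in QSi5 and -3.31 in CBA/CaH, both called.

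The 4 genes of anaphase promotion were called lower in both strains. Cdc20, the activator of the anaphase-promoting complex, had 6.39, 6.998 and 6.40 at lactation in QSi5, against 10.85, 11.35, 10.67, 11.33 and 10.69 at pregnancy. CBA/CaH mice had 5.62, 5.66 and 5.59 at lactation, against 10.81, 10.19, 10.19, 9.56 and 10.40 at pregnancy. The difference was -4.38 in QSi5 (SE 0.24, adjusted p = 4.08e-09) and -4.61 in CBA/CaH (SE 0.24, adjusted p = 4.67e-09). The ubiquitin-conjugating enzyme Ube2c differed by -3.68 and -3.51, the separase gene Espl1 by -2.07 and -1.79, and its inhibitor Pttg1 (securin) by -1.71 and -2.27.

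All 6 cytokinesis genes were called lower in both strains. Ect2, which switches on RhoA at the division plane, had 3.55, 3.86 and 3.95 at lactation in QSi5, against 7.49, 8.03, 7.61, 6.04 and 7.69 at pregnancy. CBA/CaH glands had 4.01, 3.90 and 3.81 at lactation, against 7.32, 7.01, 6.77, 7.27 and 6.86 at pregnancy. The difference was -3.59 in QSi5 (SE 0.32, adjusted p = 3.76e-07) and -3.14 in CBA/CaH (SE 0.32, adjusted p = 2.06e-06). The others were Anln (-2.87 and -2.64), Kif20a (-2.74 and -1.62), Prc1 (-2.26 and -1.30), Racgap1 (-1.43 and -1.26) and Kif23 (-1.08 and -0.85). The Kif23 call was lost in 3 of 18 alternatives in QSi5 and 10 of 18 in CBA/CaH, and with the mean of its probe sets it was -0.34 (adjusted p = 0.0518) and -0.19 (adjusted p = 0.264).

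Probe sets of the same gene often disagreed, and most exceptions to the fall had another probe set that fell. Over all 110 probe sets, 66 were called lower and 18 higher in QSi5, beside 23.1% and 35.9% of all probe sets. In CBA/CaH, 60 were lower and 21 higher, beside 20.7% and 32.3%. At least 1 probe set was called lower for 46 genes in QSi5 and 45 in CBA/CaH, and 13 and 15 genes had probe sets called in both directions. No probe set was called lower for Ndc80 and Nuf2 in QSi5, and for Ndc80, Cdc25c and Kif4 in CBA/CaH.

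Tpx2 is the clearest case of disagreement. Its probe sets 1447518_at, used above, and 1447519_x_at were called higher, the second by 2.41 in QSi5 and 2.01 in CBA/CaH. The probe sets 1428104_at (-2.21 and -1.95) and 1428105_at (-1.30 and -1.27) were called lower. Group means of 1428104_at were 4.28 at lactation and 6.49 at pregnancy in QSi5, and 4.42 at lactation and 6.37 at pregnancy in CBA/CaH.

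The other genes called higher split in the same manner. Cenpa probe set 1450842_a_at differed by -4.01 in QSi5 and -2.94 in CBA/CaH, and Kif2c probe set 1437611_x_at by -4.17 and -3.11. Cdca3 probe set 1452040_a_at differed by -1.93 and -1.66, and Foxm1 probe set 1448834_at by -0.88 and -0.66. All 4 were called in both strains, and all have a lower mean than the probe set used for their gene. With the mean of all probe sets of a gene as its value, 42 genes were called lower and 1 higher in QSi5, and 39 lower and 0 higher in CBA/CaH. Which probe set follows the main transcript of a gene was not tested.

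**Figure D3:**
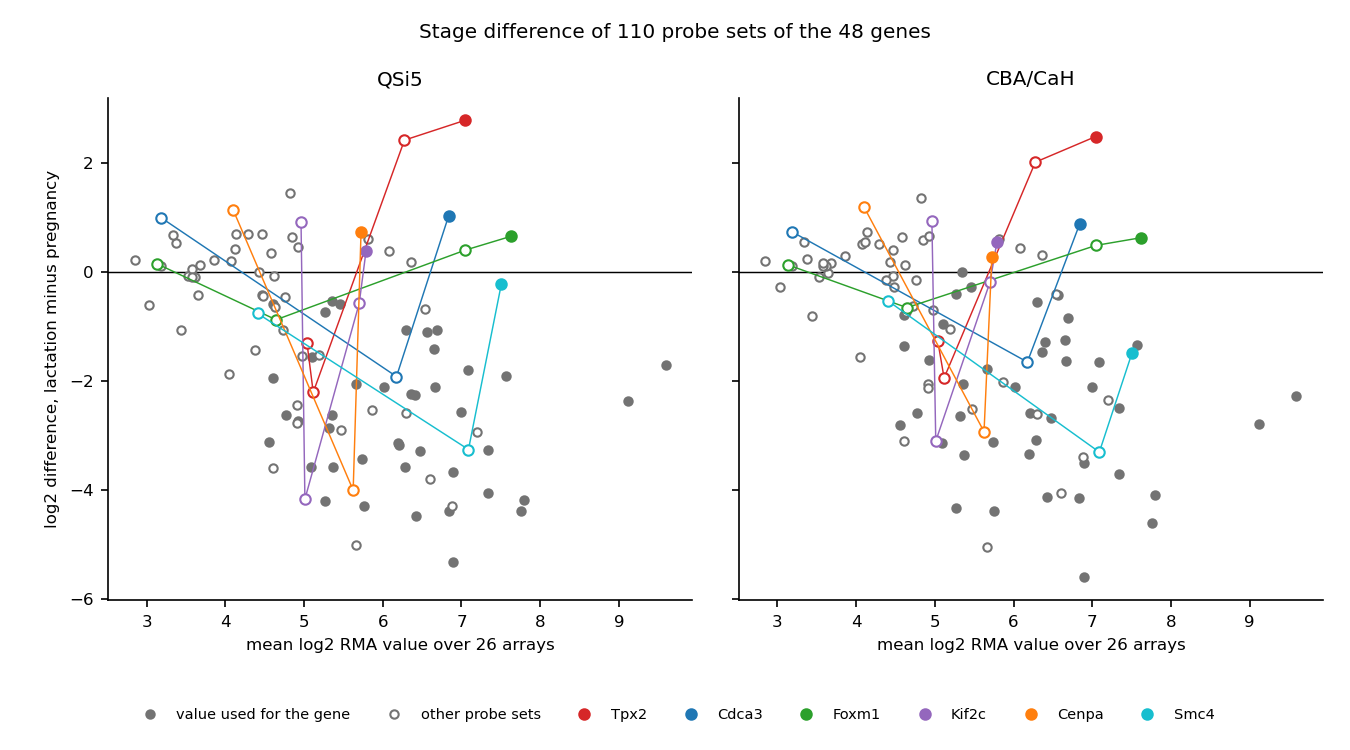
Log2 difference, lactation minus pregnancy, of each of the 110 probe sets against its mean over the 26 arrays, in QSi5 (left) and CBA/CaH (right); filled points are the values used for a gene, open points its other probe sets, and lines join the probe sets of 6 genes. Tpx2 spans 2.78 to -2.21 in QSi5.

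Over the whole array the stage difference went with level. Among all probe sets, those with a mean under 5 had a median stage difference of 0.32 in QSi5 and 0.29 in CBA/CaH, and 45.2% and 39.9% of them were called higher. Those with a mean of 5 or more had a median of -0.20 and -0.16. Of the members' probe sets called higher, 11 of 18 in QSi5 and 13 of 21 in CBA/CaH had a mean under 5. With only probe sets of a mean of at least 5 tested, 4 members were still called higher in each strain. The part of this shift in the members' higher calls was not tested. The median of all probe sets was 0.19 in QSi5 and 0.17 in CBA/CaH, and with array medians set equal 3 members in each strain were called higher.

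Neighbouring lists of the division machinery fell too. The counts of these and the following lists, several of them short, stand beside the shares of all genes. Of all genes 32.7% were called lower in QSi5 and 29.5% in CBA/CaH, and 33% and 30.4% higher. Of 13 other inner kinetochore genes measured, 12 were called lower in QSi5 and 9 in CBA/CaH, with none higher. Mis18a, which loads CENP-A, had the lowest difference (-3.27 and -3.40), followed by Cenpw (-2.59 and -2.45) and Cenpk (-2.47 and -2.15). Of 15 other outer kinetochore and checkpoint genes, 10 were lower and 1 higher in QSi5, and 9 lower and 2 higher in CBA/CaH. Bub3, the partner of BUB1, differed by -2.76 and -2.34, Zwilch by -2.21 and -2.13 and Zwint by -1.85 and -1.96. Nsl1, a subunit of the MIS12 complex, was called higher in both (1.80 and 1.52) on the probe set used. For the genes of this and the following lists, other probe sets were not examined.

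Of 20 other spindle and cytokinesis genes, 14 were lower and 1 higher in QSi5, and 13 lower and 1 higher in CBA/CaH. Plk4, the kinase of centriole duplication, differed by -3.99 and -3.57, Tacc3 by -3.41 and -3.06 and Cep55 by -3.48 and -2.95. The kinesin Kif15 was higher on the probe set used (1.52 and 1.54). Of the 13 core subunits of the anaphase-promoting complex, 11 were lower in each strain, led by Cdc23 (-2.19 and -2.14), Anapc11 (-2.35 and -2.003) and Anapc7 (-2.03 and -1.56). These act in resting cells too, as does cohesin.

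Of 14 cohesin genes, 10 were lower and 1 higher in QSi5 and 11 lower in CBA/CaH. Cdca5 (sororin), which protects cohesion in G2, differed by -3.72 and -3.94, Esco2 by -3.04 and -2.53 and Rad21 by -2.49 in each strain. Nipbl, the cohesin loader, was called higher in QSi5 (2.37), and its pregnancy values there were 3.32 on array 5 and 7.12 to 8.30 otherwise. Of 4 other condensin subunits, 3 were lower in each strain, with Ncapg2 at -3.02 and -2.92, Ncapd3 at -2.57 and -2.07 and Ncaph at -1.21 and -0.73.

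Upstream regulators were mixed. Of 19 genes of MuvB, E2F, NF-Y and the pocket proteins, 13 were lower and 2 higher in QSi5, and 12 lower and 2 higher in CBA/CaH. Rbl1 (p107), an E2F partner made in cycling cells, differed by -3.59 and -3.53, Tfdp1 by -2.09 and -2.13 and Nfya by -2.27 and -2.06. E2f5 (1.60 and 1.36) and Lin52 (1.30 and 1.21) were higher in both on the probe sets used. E2f1 was lower (-0.54 and -0.87). Mybl2, which encodes B-MYB, was called lower in QSi5 (-0.56, adjusted p = 0.0455) and had a difference of -0.12 in CBA/CaH (adjusted p = 0.669).

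Of 8 G1 cyclins and kinases, 5 were lower in each strain. Ccne2 differed by -2.76 and -2.81, Cdk4 by -2.79 and -2.45 and Ccnd1, the cyclin D1 gene needed for alveolar growth, by -2.03 and -2.27. Ccnd2 was called in neither (-0.12, adjusted p = 0.879, in QSi5 and -1.05, adjusted p = 0.154, in CBA/CaH).

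The inhibitors of cyclin-dependent kinases did not rise as a list. Of 14 inhibitor and quiescence genes, 9 were lower and 1 higher in QSi5, and 8 lower and 0 higher in CBA/CaH. Cdkn2c (p18) differed by -2.40 and -2.30, Btg1 by -1.68 and -1.58 and Klf4 by -1.99 and -1.50. Cdkn1b (p27) was called lower as well (-1.91 and -1.35). Cdkn1a (p21) was called in neither strain, at 0.05 in QSi5 (adjusted p = 0.905) and -0.16 in CBA/CaH (adjusted p = 0.709).

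Other cell types moved between the stages beside these genes. Of 8 luminal epithelial markers, 7 were called lower at lactation in QSi5 and 6 in CBA/CaH, as were 5 of 6 fibroblast markers and 4 of 6 endothelial markers in each strain. Their median differences were -2.49 and -1.89 for luminal, -2.03 and -1.96 for fibroblast and -1.23 and -1.22 for endothelial markers. Of 9 B and plasma cell markers, 8 were called higher in QSi5 and 3 in CBA/CaH, with median differences of 1.61 and 0.48. Of all genes 32.7% in QSi5 and 29.5% in CBA/CaH were called lower, and 33% and 30.4% higher. The CBA/CaH count of B and plasma cell markers was thus near the share of all genes. The part of cell composition in the fall of the mitotic genes was not tested.

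At pregnancy the strains differed little gene by gene. Of the 48 genes, 3 were called higher in QSi5 and none lower, where 0.77% of all genes were called higher. The difference was positive for 41 of the 48, with a median of 0.43, and 19 had an unadjusted p under 0.05. Among all 18193 genes it was positive for 9626, with a median of 0.01, and 1759 had an unadjusted p under 0.05. Within the pregnant QSi5 group array 2 had the highest value of 41 genes and array 4 the lowest of 33, so that the genes went up and down together between mice. Luminal epithelial markers moved beside them: none of 8 was called between strains, their median difference was 0.37, and their level on an array was 1.56 to 1.75 on 4 QSi5 arrays and 0.43 on array 4, against 0.65 to 1.39 in CBA/CaH. Their part in the strain difference was not tested. Within pregnant CBA/CaH mice array 1 had the highest value of 25 genes.

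The 3 genes were Spc25, Prc1 and Birc5. Spc25 had 8.71, 9.37, 8.81, 8.69 and 8.94 in QSi5, against 8.39, 7.83, 8.14, 8.13 and 8.24 in CBA/CaH, without overlap. It was higher by 0.76 (SE 0.15, adjusted p = 0.0156). Prc1, which bundles the midzone of the spindle, had 7.80, 8.54, 7.66, 7.28 and 8.09 in QSi5, against 7.21, 6.64, 6.88, 7.16 and 6.86 in CBA/CaH, again without overlap. It was higher by 0.93 (SE 0.19, adjusted p = 0.0231). Birc5, with the pregnancy values given above, was higher by 0.80 (SE 0.18, adjusted p = 0.0477), and array 1 of CBA/CaH lay inside the QSi5 range.

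Other members came near the threshold or showed how uneven the arrays were. Bub1b had an adjusted p of 0.0546 with a difference of 0.81. Mki67 did not follow, with a difference of -0.01, and Pttg1 had -0.57 (adjusted p = 0.202). The count of 3 rests on single arrays. Pregnancy QSi5 array 4 had the Gapdh value of 6.50 and stood apart for brown fat markers too. Without it 11 genes were called higher: Kif20a (1.48, adjusted p = 8.6e-05), Prc1, Bub1b, Spc25, Aurka, Birc5, Ncapd2, Plk1, Ect2, Anln and Ccnb2. Only 1 was called after leaving out array 2, 3 or 5 of CBA/CaH or array 1 or 5 of QSi5. With the Gapdh value as a covariate 9 were called, all higher.

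**Figure D4:**
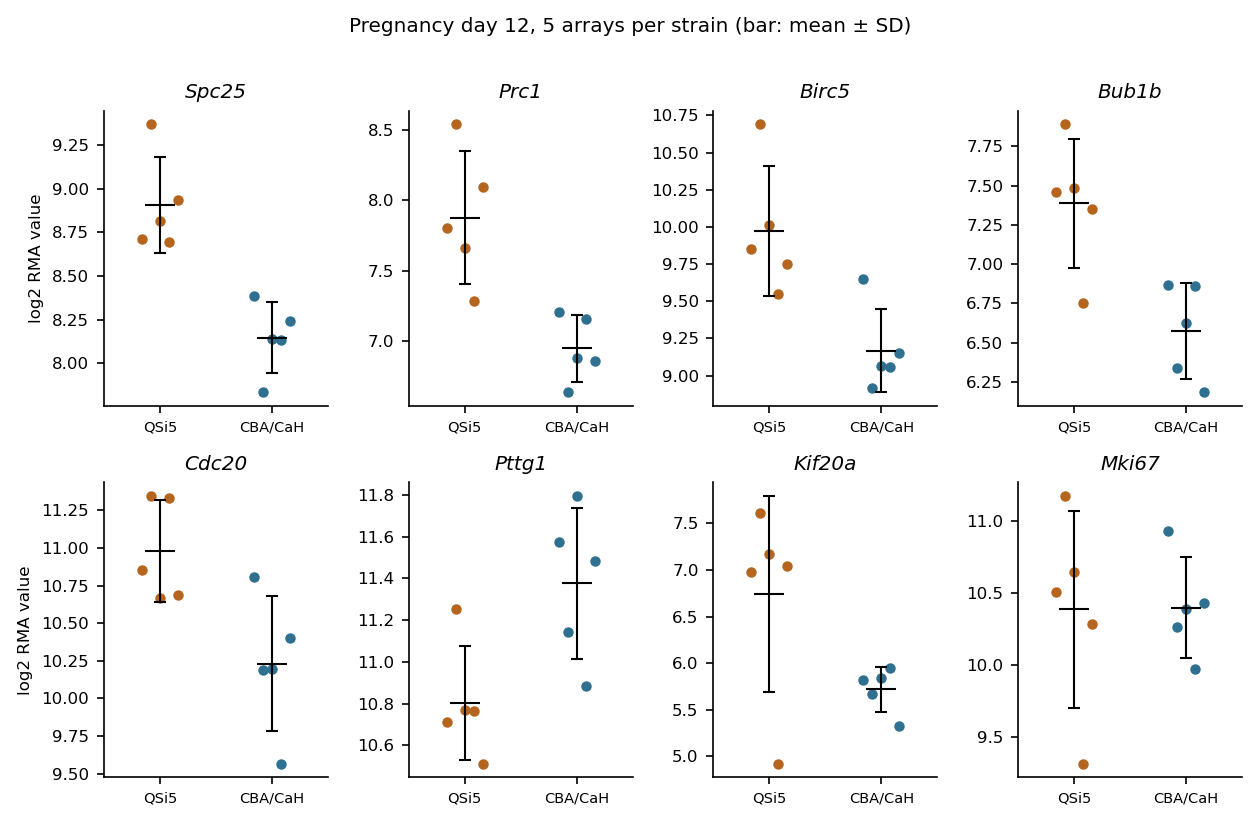
Log2 RMA values of 8 genes at pregnancy day 12 in QSi5 (left in each panel) and CBA/CaH (right), 1 point per mouse, with the mean and SD. Spc25 and Prc1 do not overlap between strains, Pttg1 and Mki67 do, and 1 QSi5 array lies at 4.92 for Kif20a, below the others at 6.98 to 7.62.

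At lactation no member was called between QSi5 and CBA/CaH by limma, where 0.346% of all genes were. An unadjusted p under 0.05 was found for 2 of the 48 members, Cdc20 and Birc5, beside 1077 of all 18193 genes. Cdc20 had 6.39, 6.998 and 6.40 in QSi5, against 5.62, 5.66 and 5.59 in CBA/CaH, without overlap, and a difference of 0.97 (SE 0.27, adjusted p = 0.334). Birc5 had a difference of 0.56 (adjusted p = 0.872).

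The interaction tests whether the stage difference is unequal in QSi5 and CBA/CaH. It called no member with limma, where 0.0989% of all genes were called. An unadjusted p under 0.05 was found for 4 of the 48 members, beside 1103 of all 18193 genes. The 4 members were Prc1 (-0.97, adjusted p = 0.647), Hmmr (-0.67), Spc25 (-0.58) and Plk1 (-0.77). A negative value means a deeper fall in QSi5. Without pregnancy QSi5 array 4, Kif20a was called (-1.58, adjusted p = 0.0155).

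The AIL mice at lactation had low mitotic gene levels like the parental strains. The array median of the 48 values was 5.01 to 5.59 in AIL AQ and 4.99 to 5.24 in AIL AC, beside 5.56 to 5.57 in QSi5 and 5.38 to 5.53 in CBA/CaH. Against QSi5, 16 members were called lower and 1 higher in the 10 AIL mice, beside 18.5% and 19.4% of all genes. Against CBA/CaH, 12 were lower and 1 higher, beside 16.2% and 18%. The median difference was -0.21 against QSi5 and -0.19 against CBA/CaH. The median of all probe sets was 5.13 to 5.22 on AIL arrays and 5.25 to 5.30 on the parental lactation arrays, without overlap. With array medians set equal the members' median was -0.10 against each strain, with 12 lower and 2 higher against QSi5 and 8 lower and 2 higher against CBA/CaH. Both comparisons use the same AIL arrays.

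Mki67 was the member called higher. It had 8.10, 8.71 and 8.99 (lowest, median and highest) in the 10 AIL mice, against 7.65, 7.77 and 8.57 in QSi5 and 7.0, 7.80 and 7.98 in CBA/CaH. It was higher by 0.63 than QSi5 (SE 0.22, adjusted p = 0.0314), with overlap, and by 1.04 than CBA/CaH (SE 0.22, adjusted p = 0.00155), without overlap. The call against QSi5 was lost in 7 of 24 alternatives, among them cyclic loess (0.30, adjusted p = 0.295) and leaving out QSi5 array 1 (0.46, adjusted p = 0.194) or 2 (0.52, adjusted p = 0.154); that against CBA/CaH was lost in 1, the Gapdh covariate (1.28, adjusted p = 0.223). The other proliferation genes did not share this: Top2a differed by -0.42 and -0.21, neither called.

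Tpx2, Pttg1 and Smc4 lay below both parental strains. Tpx2 had 7.13, 7.62 and 7.87 in AIL mice, below 8.41, 8.44 and 8.40 in QSi5 (-0.84, adjusted p = 7e-05) and 8.08, 8.36 and 8.43 in CBA/CaH (-0.71, adjusted p = 0.000353). Pttg1 had 8.12, 8.39 and 8.76 in AIL mice, below 9.00, 9.33 and 8.95 in QSi5 (-0.70) and 8.94, 9.33 and 9.03 in CBA/CaH (-0.71). Smc4 had 5.95, 6.62 and 6.81 in AIL mice, against 7.36, 8.53 and 7.61 in QSi5 (-1.26) and 7.42, 7.54 and 6.85 in CBA/CaH (-0.70). No AIL value reached a parental one for these 3 genes. The Smc4 probe set 1452197_at went the other way against CBA/CaH (0.86, adjusted p = 0.0291).

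Against QSi5 and CBA/CaH, Ndc80 differed by -0.50 and -0.70, Kif4 by -0.47 and -0.49, Cdca8 by -0.46 and -0.51, Hmmr by -0.46 and -0.68 and Kif2c by -0.39 and -0.48, all called. Cenpa (-0.54 and -0.37) and Foxm1 (-0.43 and -0.30) were called lower against both strains too. Against QSi5 alone, Cdc25c (-0.54), Cenpe (-0.57), Bub1b (-0.62), Birc5 (-0.55), Cdc20 (-0.70) and Kif23 (-0.38) were called, and against CBA/CaH alone Ttk (-0.53) and Cdca3 (-0.29). A call against only 1 strain is no test of a difference between the strains. The probe sets used for Tpx2, Kif2c, Cenpa, Foxm1 and Cdca3 ran against other probe sets of these genes between stages. With the mean of all probe sets as the value, Cenpa (-0.12 and -0.13) and Foxm1 (-0.15 and -0.13) were called against neither strain. Cdca8, Cdc25c, Cdc20, Smc4 and Cdca3 lost their calls too, while Tpx2 and Kif2c kept theirs. The counts were then 15 lower and 1 higher against QSi5 and 9 lower and 2 higher against CBA/CaH.

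**Figure D5:**
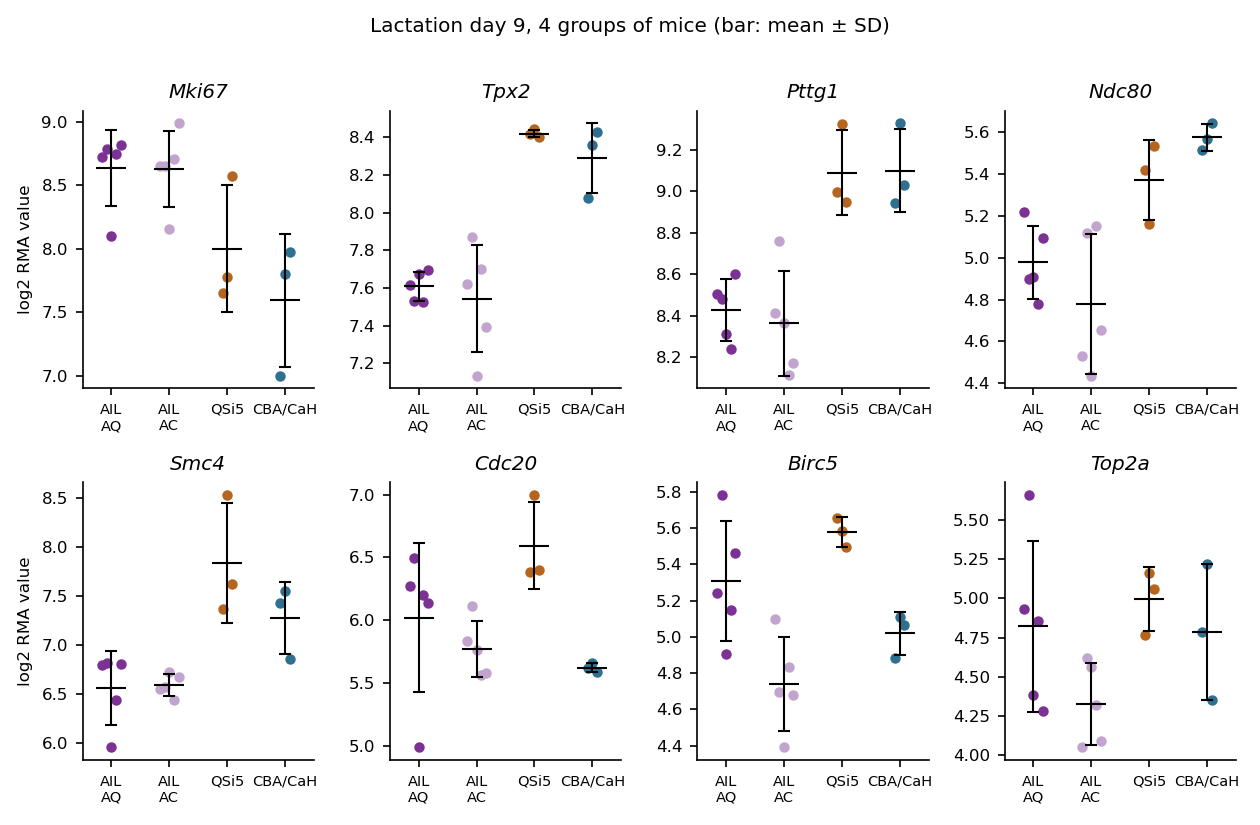
Log2 RMA values of 8 genes at lactation day 9 in AIL AQ, AIL AC, QSi5 and CBA/CaH mice, left to right in each panel, 1 point per mouse, with the mean and SD. Every AIL value of Mki67 is above those of CBA/CaH, and in the AIL mice Tpx2, Pttg1 and Smc4 lie below every parental array.

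The AIL arrays differed from the parental ones in more than these genes. The Gapdh value was 0.54 to 0.80 on the 10 AIL arrays and 1.12 to 2.02 on the 6 parental lactation arrays, without overlap. With it as a covariate 3 members were called against QSi5 (Cenpa, Smc4 and Pttg1) and 1 against CBA/CaH (Cenpa). Over all 48 members the median difference was then -0.38 against QSi5 and -0.24 against CBA/CaH. All 6 fibroblast markers were called higher in AIL mice against each strain, with median differences of 1.21 against QSi5 and 1.46 against CBA/CaH. So were 4 and 5 of 7 macrophage markers and 5 of 7 white adipocyte markers in each comparison, beside 19.4% and 18% of all genes. Against QSi5, 5 of 7 T and NK and 5 of 9 B and plasma cell markers were called lower (medians -0.57 and -0.69), beside 18.5% of all genes. Against CBA/CaH, 1 T and NK marker was lower and 2 B and plasma cell markers were higher. The SD over all probe sets was 1.94 to 2.02 on AIL arrays and 1.81 to 1.87 on the parental lactation arrays, also without overlap. Line, RNA quality, cell composition and any other difference between these sets of arrays cannot be told apart here.

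Between AQ and AC mice limma called no member and no other gene (0%). An unadjusted p under 0.05 was found for 3 of the 48 members, beside 523 of all 18193 genes. Birc5 had 5.24, 5.78, 4.90, 5.15 and 5.46 in AQ mice, against 5.10, 4.69, 4.39, 4.84 and 4.68 in AC mice, with overlap, and a difference of 0.57 (SE 0.15, adjusted p = 1). Mad2l1 differed by 0.41 and Top2a by 0.49.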

How the data were processed

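The values are log2 expression values deposited by the authors, made with RMA per the submitters' processing notes, 1 column per array. The RMA version and chip definition are not given in the sources used here, and RMA gives no detection call. Total RNA came from inguinal mammary gland, and array number limits the precision. The 26 arrays were grouped by strain and stage labels.

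All tests used limma 3.58.1 in R 4.3.3 on the deposited log2 values of 45037 probe sets (64 control probe sets left out), unscaled, with Benjamini-Hochberg adjustment over them. A first fit held the 16 parental arrays and a second the 16 lactation arrays. The code was also tested on simulated data. Tables and figures were made with Python 3.11.15, pandas 2.3.3 and matplotlib 3.10.9. GEO's platform annotation gives 34945 probe sets 1 symbol, 932 several and 9160 none.

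The members and lists were chosen with earlier results of these data known. Values per array are given for 8 core genes and the member of each role with the largest mean stage difference. Among members not called lower in both strains, they are given for Foxm1, Ndc80, Cenpa, Tpx2 and Smc4, and for Kif2c in QSi5. For Cdca3, Cdc25c, Nuf2, Kif4 and Hmmr only differences are given. In the other comparisons all called members are named. For other lists, up to 3 genes in each direction called in both strains are named, with 6 fixed regulators. Nipbl was named after its values were seen. Alternatives were a level filter, a trended robust variance, other scalings, all arrays in 1 fit, array weights and the mean of probe sets. Others were a replicate block, a Gapdh covariate, a factor for AIL numbers 1 to 3 against 4 and 5, and leaving out arrays.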

Additional observations from a re-analysis of the deposited data

Results flagged for a closer look

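Of 192 sets of member values in the groups of 5 arrays, 8 had 1 array far from the other arrays of its group, where chance flags about 1 in 20. Pregnancy QSi5 array 4 was the low array for 3 genes: Aurkb had 4.59 against 6.08 to 6.45 on the others, Kif20a 4.92 against 6.98 to 7.62 and Ect2 6.04 against 7.49 to 8.03. That array also had the Gapdh value of 6.50 and stood apart for brown fat markers. The part of RNA quality or of other tissue was not tested. AIL AQ array 3 was low for Mki67, at 8.10 against 8.72 to 8.81, and for Cdc20, at 4.99 against 6.14 to 6.50. AIL AC array 2 was low for Cdca3, at 6.82 against 7.06 to 7.14. AIL AC array 1 was high for Cenpf, at 4.94 against 4.73 to 4.76. Pregnancy CBA/CaH array 1 was high for Mad2l1, at 8.36 against 8.03 to 8.12.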

How the results depend on the processing

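The number of members called between stages stayed at 40 to 47 in QSi5 and 37 to 43 in CBA/CaH under every alternative run, and 39 of 44 and 34 of 42 called genes kept their call wherever they were tested; the level filter leaves 5 members untested. By the same tally 1 of 17 calls was kept for AIL against QSi5 (Pttg1), 0 of 13 for AIL against CBA/CaH and 0 of 3 for strain at pregnancy. Leaving out 1 array gave 43 to 46 in QSi5 and 38 to 43 in CBA/CaH. With the mean of all probe sets the stage difference turned to -0.72 for Cenpa and -0.87 for Kif2c in QSi5, and to -0.50 for Cenpa, -0.46 for Kif2c and -0.019 for Cdca3 in CBA/CaH, since other probe sets of these genes fell. By the same change AIL against CBA/CaH turned to 0.035 for Cdca8 and 0.14 for Smc4. The count between strains at pregnancy, 3, became 6 with all arrays in 1 fit, 10 with array weights and 9 with the Gapdh covariate, and 1 to 11 leaving out 1 array; the cause was not tested. The AIL counts became 8 against CBA/CaH with all arrays in 1 fit, and 1 against CBA/CaH and 3 against QSi5 with the Gapdh covariate. Leaving out 1 array gave 9 to 15 against CBA/CaH and 15 to 19 against QSi5. The counts for strain at lactation and for AQ against AC stayed at 0 to 0, and the interaction at 0 to 1. Same-numbered arrays had correlated deviations over 0.1 for 4 of 5 numbers between AIL AQ and AIL AC, where 3 of 5 fitted best with their own number. Between any other groups at most 1 number had a correlation over 0.1. Between CBA/CaH at pregnancy and at lactation, 3 of 3 fitted best with their own number. Between AIL numbers 1 to 3 and numbers 4 and 5, 0 members were called, beside 1.66% of all genes. The labels give the numbers no meaning, so they were not taken to pair the mice. With the number as a replicate block, 44 members were called between stages in QSi5, 42 in CBA/CaH, 0 between strains at pregnancy, 0 at lactation, 0 for the interaction, 14 for AIL against QSi5, 12 against CBA/CaH and 0 for AQ against AC.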
